A study of Homo sapiens with 8 samples.

Results

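The CTCF map that remained in HT1080 cells after treatment with the curaxin CBL0137 is described here as all 29558 peaks that were called over input DNA in treated cells. They make up 29558 of the 77028 peaks in the 2 deposited lists of peaks over input, the other 47470 being those of control cells. HT1080 is an established human fibrosarcoma line, labelled as connective tissue and ras +. Treated cells received 3 µM CBL0137 for 6 h, control cells received no drug, and each condition had 2 CTCF ChIP libraries and 2 input libraries, which makes 8 libraries. PePr called the peaks of a condition from its replicates together, so each list is pooled and no replicate error can be given for any value below. The intervals in brackets are 95% intervals that cover counting error only (Wilson for shares, exact Poisson for densities, order statistics for medians). The lists hold no read counts, so the depth behind a peak is unknown.

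CTCF is a DNA-binding protein with an array of zinc fingers that recognizes a long, directional sequence. It halts the ring-shaped cohesin complex as cohesin extrudes chromatin, and the loops formed in this way tend to end at CTCF sites whose sequences point toward each other. Curaxins are small molecules that intercalate into DNA without breaking it and disturb nucleosomes and protein binding to DNA.

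The strongest loci show what the protein recognized. The 12-base core of the CTCF consensus was searched within 200 bases on both sides of each peak center, on both strands and with at most 1 mismatch. It was present in 17857 of the 29530 peaks on chromosomes 1 to 22 and X, which is 60.5% (59.9% to 61.0%), against 3.17% (2.98% to 3.38%) of windows of the same size placed 10 kb away. The label of a CTCF immunoprecipitation was therefore met by the sequence under the peaks. The cores of 9 of the 10 peaks with the highest fold enrichment over input are shown with 9 flanking bases on each side, in the direction of the core, read from the GRCh37 reference (hg19 coordinates). Capitals mark the core.

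chr7:156742151-156742600, plus strand: gccctccggCCAGCAGGGGGCgccgcccgc
chr11:61284401-61284750, minus strand: ccagaactaCCGCCAGGTGGCgccaggccc
chr16:89307201-89307500, plus strand: agggcctggCCAGCAGGGGGCggtagcgca
chr1:40439201-40439550, minus strand: tcctttcttCCAGCAGGTGGCgccaaagct
chr16:30461101-30461400, plus strand: acgcatcacCCTCCAGGGGGCgccctgtca
chr17:72086051-72086350, plus strand: tagctcctgCCAGTAGGGGGCactcgggag
chr14:106765001-106765650, minus strand: cgctcagcaCCACCAGGGGGCgctcaggac
chrX:73770151-73770500, minus strand: ctctggtggCCAGCAGGGGGCgcgcgaacc
chr17:72787601-72788000, plus strand: tcccagtggCCGGCAGAGGGCgctaggagc

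These 10 loci lay at promoters, in introns, in an untranslated region and in intergenic DNA. The highest fold enrichment, 105, belonged to a peak without the core in an intron of PLXNB2 (chr22:50714501-50715050), which encodes a plexin receptor for semaphorins. The next, at 104, was centered 30 bp from the start site of NOM1, a nucleolar protein gene on chromosome 7. The chromosome 11 peak (103) lay in an untranslated region of SYT7, which encodes a synaptotagmin that senses calcium in exocytosis. Both chromosome 16 peaks (103 and 102) were intergenic, with the start sites of ZNF778 and SEPHS2 as the nearest protein-coding ones, at 23240 and 4056 bp. The chromosome 1 peak (102) was intergenic too, 18592 bp from the start of the lipid transporter gene MFSD2A. The chromosome 17 peaks (101 and 98.8) lay in introns of the noncoding gene LINC02074 and of TMEM104. The X-linked peak (101) was intergenic, 64133 bp from RLIM, which encodes a ubiquitin ligase. The chromosome 14 peak (101) stood in the immunoglobulin heavy-chain variable region, 601 bp from the start of the pseudogene IGHVIII-26-1. Thus 9 of the 10 had the core, and 6 of those 9 matched it exactly.

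Peaks were narrow. Over the whole list, the median width was 300 bp, the middle range (from the first to the third quartile) ran from 200 to 350 bp, and 754 peaks (2.55%) were wider than 500 bp. The fold enrichment had a median of 27.8, with quartiles of 18.1 and 40.0 and a range from 1.83 to 105. No peak had a p-value above 9.99937e-06 or an FDR above 0.00221, both as deposited by the authors. In all, the peaks on the mapped chromosomes covered 0.303% of the assembled sequence.

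The core became more frequent with fold enrichment. It was found in 44.3% (42.5% to 46.1%) of the weakest 10% of peaks, in 59.95% (58.2% to 61.7%) of the middle 10% and in 76.4% (74.8% to 77.9%) of the strongest 10%. Exact matches went from 8.77% (7.80% to 9.85%) in the weakest 10% to 33.8% (32.1% to 35.5%) in the strongest 10%. Where present, the core lay close to the peak center, at a median distance of 13 bp, and 94.3% of cores were within 50 bp. The median GC content of the 500 bp around the center was 45.8% in the weakest 10% and 56.4% in the strongest 10%. So strength, core and GC content moved together, and their separate parts were not tested. Cores pointed to the plus strand in 50.6% (49.9% to 51.3%) of peaks that had one.

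Exact copies of the core differed widely in how often they lay within a peak. The consensus allows 16 exact versions, and chromosomes 1 to 22 and X hold 10944 copies of them on both strands, of which 6074, or 55.5% (54.6% to 56.4%), lay within a peak of treated cells. The versions with the highest and the lowest share are written here to show which bases differ.

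highest share: CCACTAGGGGGC
second highest: CCACCAGGGGGC
second lowest: CCAGTAGATGGC
lowest share: CCAGCAGATGGC

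The first of these had 307 copies, of which 94.5% (91.3% to 96.5%) lay in a peak, with a median fold of 39.9. The next had 842 copies, 82.3% (79.6% to 84.7%) of them in a peak. The version with the lowest share had 922 copies and only 26.2% (23.5% to 29.2%) in a peak, with a median fold of 30.7, and the version above it had 443 copies with 29.8% (25.7% to 34.2%). Versions that ended in GGGC were in a peak at 66.4% (65.1% to 67.7%) of 5348 copies, and those that ended in TGGC at 45.1% (43.8% to 46.4%) of 5596 copies. The corresponding shares for control peaks were 66.8% (65.5% to 68.0%) and 55.3% (54.0% to 56.6%). For the version with the highest share, 90.6% (86.8% to 93.3%) of copies lay in a control peak, and for the version with the lowest, 38.3% (35.2% to 41.5%). This gap was wider in the treated map, but not every position behaved so. Versions with TAG in the middle were in a treated peak at 61.6% (60.003% to 63.2%) of 3584 copies and those with CAG at 52.5% (51.4% to 53.7%) of 7360, and in a control peak at 70.1% (68.6% to 71.6%) and 56.5% (55.3% to 57.6%), the wider gap. Such differences could not be tested on pooled lists.

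The density of the treated map was 10.4 peaks per Mb of assembled sequence (10.3 to 10.5), or a peak per 96.0 kb, and it varied by 5.46 times between chromosomes. Chromosome 19, the most gene-dense chromosome, had 26.5 peaks per Mb (25.2 to 27.9), followed by chromosome 17 with 20.2 (19.3 to 21.3), chromosome 22 with 17.2 (15.9 to 18.7) and chromosome 20 with 16.4 (15.4 to 17.5). At the other end stood chromosome X with 4.86 (4.51 to 5.22), chromosome 4 with 5.80 (5.46 to 6.16), chromosome 13 with 6.51 (6.01 to 7.04) and chromosome 18 with 7.34 (6.74 to 7.98). The order at the top was clear of the counting error except between chromosomes 22 and 20, whose intervals overlapped. At the sparse end, the intervals of chromosomes 4 and 13 overlapped, and so did those of chromosomes 13 and 18. The control list varied less, by 3.09 times, from 9.19 on X to 28.4 on chromosome 19. The treated density was 93.4% of the control density on chromosome 19, 77.7% on chromosome 16 and 75.3% on chromosome 17, but 51.3% on chromosome 4, 51.5% on chromosome 13 and 52.9% on X.

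**Figure D1:**
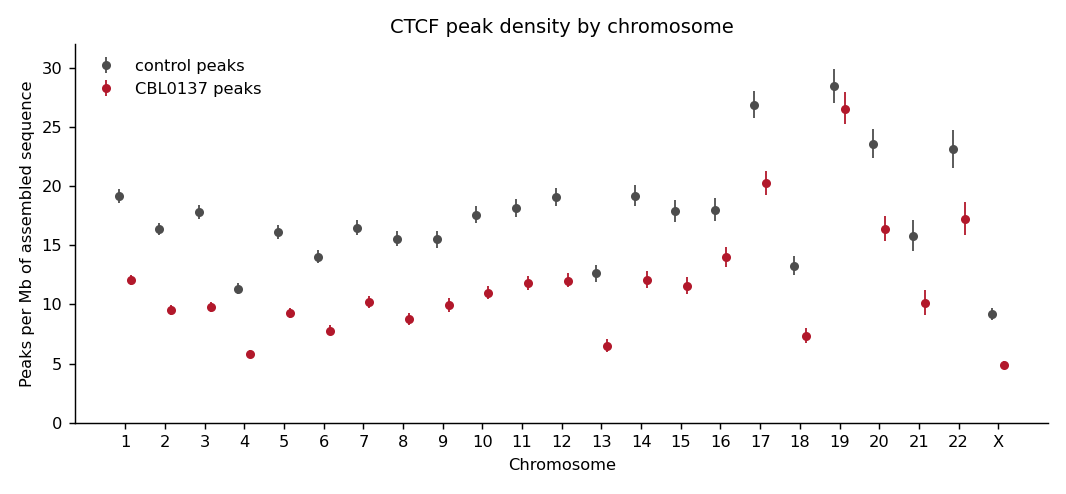
Peaks per Mb of assembled sequence (vertical axis) on each chromosome (horizontal axis) for the treated (red) and the control (gray) list, with exact Poisson 95% intervals as bars. The treated list lies between 4.86 on X and 26.5 on chromosome 19, and its distance to the control list is smallest on chromosome 19.

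Because the control list is longer, it was also limited to as many of its strongest peaks as the treated map holds, 29530, a choice made after the data had been seen. The limited control list has the same mean density by construction and varied by 2.94 times between chromosomes. It had 21.0 peaks per Mb (19.8 to 22.2) on chromosome 19, 7.40 (7.01 to 7.80) on chromosome 4 and 7.33 (6.91 to 7.78) on X. Compared with it, the treated map was denser on chromosome 19 and sparser on chromosomes 4 and X, in each case beyond the counting error. These differences did not follow gene density throughout. Chromosome 3, with 5.56 protein-coding genes per Mb, was denser in the treated map, at 9.79 (9.36 to 10.2) against 8.60 (8.19 to 9.02). Chromosome 11, with 10.04 genes per Mb, was sparser, at 11.8 (11.2 to 12.4) against 13.1 (12.5 to 13.8).

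Across the 23 chromosomes, the treated density followed the number of protein-coding genes per Mb (Pearson r 0.937, Spearman rho 0.897) and the GC content (r 0.925, rho 0.932). Without chromosomes 17 and 19, r was 0.855 with genes and 0.898 with GC content. In the control list, r was 0.833 with genes and 0.864 with GC content, and in the limited control list 0.928 and 0.949. Without chromosomes 17 and 19, r in the limited list was 0.917 and 0.922, so a closer relation in the treated map was not seen at equal length. The points share libraries and base composition, and the values are a description. Per protein-coding gene the order was another, with 1.00 peaks on chromosome 19, 2.06 on chromosome 18 and 0.845 on X.

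Windows of 1 Mb, pooled over all chromosomes, showed a similar gradient. The 2846 windows of 1 Mb with at least 500 kb of assembled sequence held a median of 8 peaks, with quartiles of 4 and 14, and 97 windows held none. The 284 windows with the most peaks had 28.9% of the map, against 22.4% for as many windows chosen in the same way in control cells. When the windows were divided into 5 equal groups by GC content, treated peaks numbered 3.18, 6.22, 8.85, 11.9 and 22.1 per Mb from the lowest to the highest group, and control peaks 7.91, 12.6, 16.1, 19.2 and 28.1. The treated density thus came to 40.2% of the control density in the lowest group and to 78.5% in the highest. Windows without a protein-coding start site had 2.97 treated peaks per Mb, and those with over 20 start sites had 26.2. GC content and gene number vary together in these windows. Among windows of the lowest GC group, those with up to 2 start sites had 2.67 peaks per Mb and those with 3 to 10 had 5.66, and in the highest GC group these densities were 11.2 and 17.2.

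The terminal 5 Mb at both ends of the chromosomes were rich in peaks, with 18.3 per Mb against 9.81 elsewhere. Control peaks numbered 21.98 and 16.3 per Mb in the same places.

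The 5 densest non-overlapping windows lay on 4 chromosomes. The window at chr19:1000001-2000000 held 79 treated peaks, against 56 control peaks, and includes STK11, a tumor suppressor kinase gene, and TCF3, a transcription factor gene. It was followed by chr19:18000001-19000000 with 57 peaks (control 58), around JUND and UPF1, which encode an AP-1 component and a helicase of nonsense-mediated decay. The window at chr14:105000001-106000000 held 56 peaks (control 50) around the kinase gene AKT1 and the Notch ligand gene JAG2. The protocadherin window, chr5:140000001-141000000, held 55 (control 74). The window chr17:79000001-80000000, with the actin gene ACTG1, held 54 (control 48), as many as each of 2 further windows on chromosome 19. The chromosome 5 window stood apart in GC content, at 41.7% against 54.4% to 59.1% in the other 4. Only 69 of the 2846 windows had more treated than control peaks, 13 of them among the 56 windows of chromosome 19, and 2658 had fewer.

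Neighboring peaks lay a median of 40.9 kb apart (39.9 to 41.8), but the mean distance was 99.6 kb, since the spacing was uneven. The quartiles were 13.6 and 105.5 kb. Distances under 10 kb made up 19.7% (19.3% to 20.2%), and distances under 1 kb made up 1.66% (1.52% to 1.81%), or 490 pairs. Gaps over 100 kb were 26.3% (25.8% to 26.8%) of all gaps and contained 76.4% of the sequence between neighbors. There were 881 gaps over 500 kb, which held 28.8% of that sequence, and 190 over 1 Mb.

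The control map was denser and more even. Its median distance was 30.2 kb (29.7 to 30.7), its mean 61.9 kb, and it had 327 gaps over 500 kb with 12.7% of the sequence. The limited control list had a median of 47.3 kb (46.2 to 48.3) with nearly the same mean as the treated map, 99.4 kb. It had 257 distances under 1 kb and 667 over 500 kb. With equal numbers of peaks, the treated map therefore had more distances under 1 kb and more over 500 kb. Its ratio of mean to median distance was 2.44 against 2.10. The limited list was cut by fold, however. In the full control list 1.76% (1.65% to 1.88%) of distances were under 1 kb, against 1.66% (1.52% to 1.81%) in the treated map. The excess of short distances was thus seen only against the limited list.

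**Figure D2:**
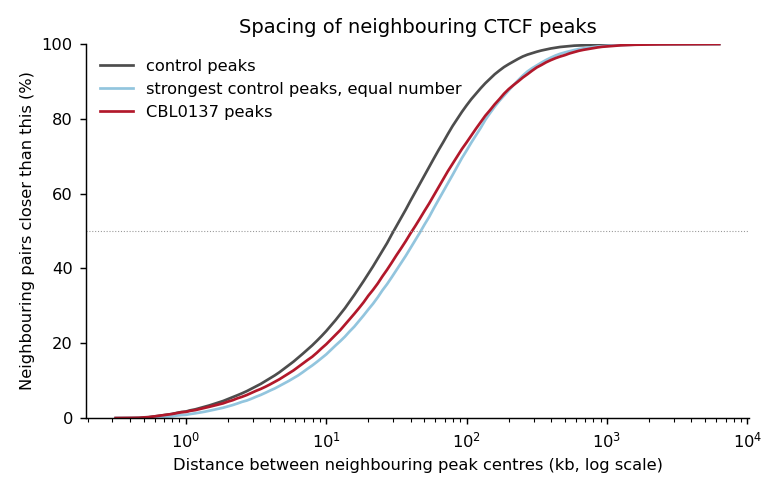
Share of neighboring pairs (vertical axis, %) whose centers are closer than the distance on the horizontal axis (kb, log scale) for the treated list (red), the control list (dark gray) and the equally long list of the strongest control peaks (light blue). The curves reach 50% at 40.9 kb, 30.2 kb and 47.3 kb, and the red and light blue curves cross at long distances.

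Peaks in crowded places differed in kind from lone peaks. The 2525 peaks with a neighbor within 2 kb were at protein-coding promoters in 17.6% (16.1% to 19.1%) of cases, and 55.6% (53.7% to 57.5%) had the core. The 1009 peaks whose nearest neighbor was over 200 kb away were at such promoters in 3.07% (2.17% to 4.33%) of cases, and 63.3% (60.3% to 66.2%) had the core. Their median folds were 28.4 (27.6 to 29.1) and 25.4 (24.5 to 26.8), and the GC contents of the surrounding 100 kb were 47.7% and 37.3%.

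More pairs lay 375 bp apart than fitted among the 5 closest, and those first in chromosome order were taken. In the 5 pairs so listed, 9 of the 10 peaks had a fold below the median of the map. A pair 325 bp apart at chr17:27223951-27224400 lay at the promoter of FLOT2, which encodes the membrane scaffold protein flotillin, and had folds of 13.1 and 11.8 with no core. Another pair 325 bp apart lay in an intron of LY6E-DT on chromosome 8, with folds of 11.20 and 11.02, and both of its peaks had the core on the minus strand. A pair 350 bp apart in LINC00486 on chromosome 2 had folds of 4.99 and 3.58. The pair in CFAP74 on chromosome 1, 375 bp apart, had folds of 27.2 and 14.2. The strongest peak of these pairs, with a fold of 58.2, lay beside the start of MZT2A, a gamma-tubulin complex gene on chromosome 2, 375 bp from a peak with a fold of 25.6.

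The direction of the core in neighboring peaks changed with their distance. Among the 10875 neighboring pairs in which both peaks had the core, 49.6% (48.6% to 50.5%) pointed the same way, 24.2% (23.4% to 25.01%) faced each other and 26.2% (25.4% to 27.1%) faced away. Facing pairs, the arrangement found at loop ends, made up 18.7% (15.3% to 22.7%) of pairs under 2 kb apart, 18.9% (17.1% to 20.8%) at 2 to 10 kb and 19.7% (18.1% to 21.3%) at 10 to 30 kb. Their share was 24.7% (23.3% to 26.2%) at 30 to 100 kb, 30.8% (28.9% to 32.8%) at 100 to 300 kb and 31.1% (28.0% to 34.3%) beyond. Pairs facing away made up 23.7% (19.9% to 28.1%) under 2 kb, 27.9% (25.8% to 30.1%) at 2 to 10 kb and 30.1% (28.3% to 31.98%) at 10 to 30 kb, and from there their share was lower at each distance, down to 21.6% (18.9% to 24.5%) over 300 kb. The control map had the same order, with 20.7% (19.3% to 22.2%) facing at 10 to 30 kb and 34.3% (29.2% to 39.9%) over 300 kb. At each distance, the intervals of the treated and control shares of facing pairs overlapped.

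**Figure D3:**
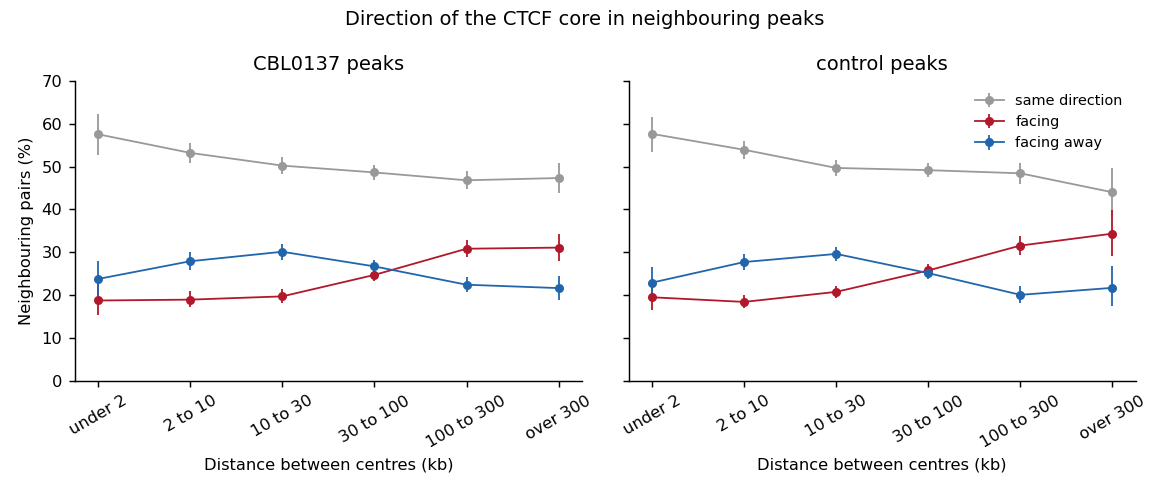
Share of neighboring pairs (vertical axis, %) whose cores point the same way (gray), face each other (red) or face away (blue), by the distance between centers (horizontal axis, kb), with Wilson 95% intervals. In the treated list (left) facing pairs go from 18.7% under 2 kb to 31.1% over 300 kb, and in the control list (right) they reach 34.3%.

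A strong facing pair is shown as an example. Of facing neighbors between 100 kb and 1 Mb apart, the pair whose weaker peak had the highest fold enclosed the start of BCR, the gene of the breakpoint cluster region on chromosome 22.

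chr22:23520651-23521000, plus strand: ttagcaaggCCTGCAGAGGGCagcagtgag
chr22:23624001-23624350, minus strand: tcgccatcaCCAGCAGAGGGCaccccatgc

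The left peak had a fold of 85.6 and lay 1065 bp from the BCR start site, and the right peak had a fold of 63.4 and lay in a BCR intron, 103 kb away. This pair was chosen after its values were seen.

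Peaks were concentrated at promoters and exons. Within 1 kb of a protein-coding start site, 2762 peaks were centered, which is 9.35% (9.03% to 9.69%) of the map on 1.30% of the assembled sequence, or 74.97 peaks per Mb of such promoters. Promoters of other genes held 5.01% (4.76% to 5.26%) of peaks on 2.73% of the sequence. Coding exons held 3.02% (2.83% to 3.23%) on 1.11%, untranslated regions 3.21% (3.02% to 3.42%) on 1.53%, and noncoding exons 3.21% (3.02% to 3.42%) on 1.76%. Introns held 47.4% (46.9% to 48.0%) on 54.9%, and intergenic DNA 28.8% (28.2% to 29.3%) on 36.7%. Relative to their share of the sequence, promoters and all kinds of exons were thus over-represented and introns and intergenic DNA under-represented.

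In control cells, protein-coding promoters held 6.76% (6.54% to 6.99%) of peaks, and in the limited control list 7.003% (6.72% to 7.30%). Intergenic DNA held 30.8% (30.4% to 31.2%) and 32.4% (31.8% to 32.9%). The larger promoter share of the treated map therefore did not depend on the length of the control list. It was not a larger number of promoter peaks than in control cells. The full control list had 3207 of them, or 87.0 per Mb of promoter, against 2762 and 74.97 in the treated map. The limited control list had 2068, or 56.1 per Mb.

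**Figure D4:**
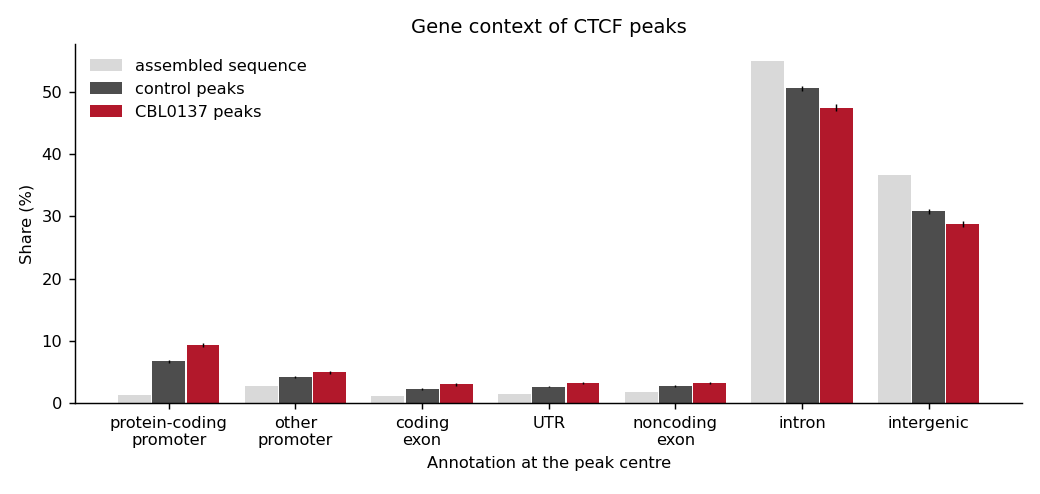
Share (vertical axis, %) of the assembled sequence (light gray), of control peaks (dark gray) and of treated peaks (red) in each annotation class (horizontal axis), with Wilson 95% intervals on the peak shares. Protein-coding promoters make up 1.30% of the sequence, 6.76% of control peaks and 9.35% of treated peaks.

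Promoter peaks had the core less often. It was found in 37.3% (35.5% to 39.1%) of peaks at protein-coding promoters, 55.8% (52.5% to 59.0%) of those on coding exons, 62.5% (61.7% to 63.3%) of intronic and 64.9% (63.9% to 65.9%) of intergenic peaks. Their median fold, 29.98 (29.3 to 30.9), was close to that of intergenic peaks, 29.3 (28.9 to 29.8), and above that of intronic peaks, 26.2 (25.9 to 26.6). The GC content of the 500 bp around the center was 65.8% at promoters and 47.2% in intergenic DNA. In the control list the core was found in 34.1% (32.5% to 35.7%) of promoter peaks and 50.9% (50.1% to 51.8%) of intergenic peaks. The limited control list had it in 41.8% (39.7% to 43.9%) and 59.1% (58.1% to 60.1%). For promoter peaks, the treated share thus lay above that of the full control list and below that of the limited list.

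The 5 strongest peaks at protein-coding promoters belonged to NOM1 (104), DNAJC11 (96.4), ATMIN (96.1), ISG15 (94.8) and FAM220A (94.5). DNAJC11 encodes a mitochondrial J-domain protein, ATMIN a zinc finger protein that interacts with the ATM kinase, and ISG15 a ubiquitin-like modifier induced by interferon. The peaks of NOM1, DNAJC11, ATMIN and FAM220A were centered 8 to 146 bp from the start site and that of ISG15 858 bp from it. The start site is the upstream end of the whole gene model, and the ISG15 peak was centered inside that model. Its distance to the starts of shorter ISG15 transcripts was not measured. The core was present in 4 of the 5, and the DNAJC11 peak was the exception.

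Of the 20098 protein-coding genes, 2922 (14.5%, 14.1% to 15.03%) had a peak within 1 kb of the start site and 7815 (38.9%, 38.2% to 39.6%) within 10 kb. The median distance from a start site to the nearest peak was 16.8 kb, and from a peak to the nearest start site 29.8 kb. For 2236 genes (11.1%, 10.7% to 11.6%) the nearest peak was over 100 kb away, compared with 5.39% (5.09% to 5.71%) in the control map and 9.76% (9.35% to 10.2%) in the limited control list. All of these shares include genes of a chromosome 6 interval, described below, that had 184 start sites and no peak in either list. That interval cannot be described as free of CTCF.

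At least 1 peak lay within the body of 8844 protein-coding genes, and 52 genes held 10 or more. GSE1, a gene of 507 kb on chromosome 16, held 24 peaks in both the treated and the control map, the highest number in the treated map. RBFOX1, which encodes a splicing regulator and spans 2474 kb, held 20, against 31 in control cells. NTM, a neural cell adhesion gene of 966 kb, held 18, against 32. Long genes were not always populated, since 13 of the 323 genes over 500 kb had no peak. The longest of them were GRIK2, a glutamate receptor subunit gene of 1119 kb with 4 control peaks, SOX5, a transcription factor gene of 1033 kb with 4, and PCDH9, a protocadherin gene of 928 kb with 7. FOXP2, a transcription factor gene of 607 kb, had none either, against 7 in control cells.

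Gene families were covered very unevenly. A peak within 10 kb was found for 64.8% (64.2% to 65.5%) of all protein-coding genes. Among the clustered protocadherins, neuronal adhesion proteins whose promoter choice is known to involve CTCF, 51 of 53 genes (96.2%, 87.2% to 98.96%) had such a peak, and so did 40 of 44 collagen genes (90.9%, 78.8% to 96.4%) and 32 of 39 HOX genes (82.1%, 67.3% to 91.0%). Solute carriers were at 71.8% (67.1% to 76.2%) of 373 and ribosomal protein genes at 66.2% (54.0% to 76.5%) of 65. Below the share of all genes stood zinc finger genes at 44.6% (40.3% to 48.9%) of 509, keratins at 45.5% (33.0% to 58.5%) of 55 and histones at 38.6% (28.0% to 50.3%) of 70. The lowest shares belonged to the olfactory receptors with 13.0% (10.1% to 16.6%) of 414, the keratin-associated proteins with 10.6% (5.88% to 18.5%) of 94, the interferon alpha genes with 1 of 13, the taste receptors with 4 of 24 and the beta-defensins with 8 of 40. Gene length differs among these families, from a median of 0.514 kb for histones to 145 kb for collagens. HOX genes have a median length of 4.22 kb and lie packed in clusters, where neighbors share peaks. Reads that aligned to more than a single place had been removed by the authors. Some beta-defensin genes lie in a chromosome 8 stretch rich in repeated sequence, described below. Some olfactory receptor genes lie in the peak-free stretch of chromosome 6, also described below. The part of gene length, clustering and repeated sequence in these shares was not tested.

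In control cells the shares were 96.2% for protocadherins, 97.7% for collagens, 87.2% for HOX genes, 47.5% for zinc finger genes, 83.1% for ribosomal protein genes and 22.7% for olfactory receptors. The families thus had nearly the same order in both maps. In the limited control list, 63.3% (62.7% to 64.01%) of all protein-coding genes had a peak nearby. That list had 37.3% (33.2% to 41.6%) of zinc finger genes and 84.9% (72.9% to 92.1%) of protocadherins, below the treated shares. It had 42.9% (31.9% to 54.5%) of histones, 69.2% (57.2% to 79.1%) of ribosomal protein genes and 93.2% (81.8% to 97.7%) of collagens, above them. For each of these families the intervals of the treated and the limited list overlapped.

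The HOX and protocadherin clusters held dense rows of peaks. HOXA, which carries homeobox genes of body patterning, had 7 treated peaks in 107 kb on chromosome 7 (control 10), and its 4 peaks with the core all pointed to the minus strand. HOXB had 8 in 200 kb (control 11), HOXC 4 in 117 kb (control 7) and HOXD 6 in 98.2 kb (control 6). Peaks of HOXC reached a fold of 72.9 although none had the core.

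Protocadherin clusters carried a peak at the start of many of their genes. PCDHA had 15 peaks in 226 kb (control 19), and 10 of its 15 genes had a peak within 1 kb of the start. All 7 of its peaks with the core pointed to the plus strand, the direction of transcription of the cluster. PCDHB had 14 peaks (control 16) with 12 of 16 starts occupied, and PCDHG 13 (control 20) with 9 of 22. The median folds of the 3 clusters were 21.9, 23.7 and 19.9, below the median of the whole map. Gene models of PCDHA overlap and end at the same place, so its genes are not independent.

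The immunoglobulin heavy-chain region also held some of the widest peaks. The widest peak of the map, 1500 bp with a fold of 68.0, lay at chr14:107147251-107148750, near the heavy-chain variable pseudogene IGHVIII-67-3, and a peak of 1350 bp with a fold of 63.5 at chr14:107238701-107240050 near IGHVIII-76-1. A peak of 1450 bp with a fold of 69.8 at chr15:22460951-22462400 lay 4817 bp from the start of another immunoglobulin variable pseudogene. The other 2 of the 5 widest peaks were at the promoter of ABCA2, a lipid transporter gene (chr9:139922701-139924150, 1450 bp, fold 37.7), and in a noncoding exon at RAB11FIP4, which encodes an effector of Rab11 (chr17:29852351-29853650, 1300 bp, fold 38.5). The cores of the widest chromosome 14 peak and of the chromosome 15 peak are shown, since they share most of their flanks.

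chr14:107147251-107148750, minus strand: tgctcagaaCCACCAGGGGGCacccaggac
chr15:22460951-22462400, minus strand: tgctcagaaGCACCAGGGGGCgctcaggac

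Long stretches without any peak took up much of the treated genome. There were 828 stretches of at least 500 kb with under 5% unassembled bases, which together held 681 Mb, or 24.01% of the assembled sequence. In control cells there were 281 such stretches with 7.78% of the sequence, and in the limited control list 621 with 17.8%. Of the treated stretches, 163 were at least 1 Mb and 20 at least 2 Mb long. They were poor in GC (median 37.1%, against 40.9% for the assembled sequence) and in genes, with 2.07 protein-coding start sites per Mb against 7.09 overall. The stretch on chromosome 6 described below held 185 of the 1410 start sites inside them. No protein-coding gene overlapped 236 of the stretches, and 376 held no protein-coding start site. Control cells had a median of 3 peaks in a stretch and none in 67 of them.

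Such stretches covered 48.6% of the assembled X chromosome, 38.3% of chromosome 4, 37.1% of chromosome 13 and 31.8% of chromosome 18. On chromosomes 22, 20 and 17 they covered 3.66%, 6.73% and 7.39%.

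**Figure D5:**
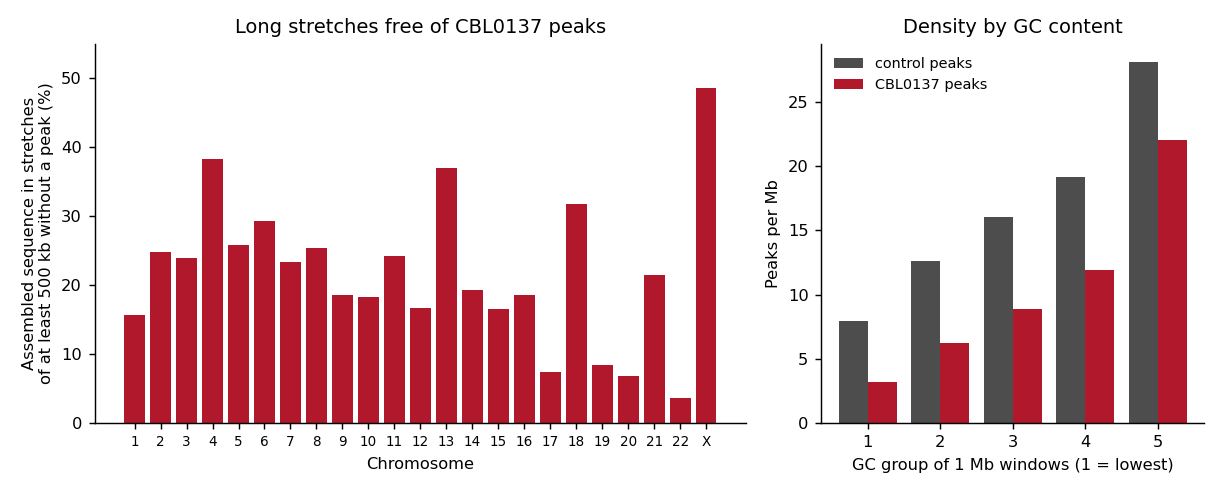
Left, share of the assembled sequence of each chromosome (vertical axis, %) that lay in stretches of at least 500 kb without a treated peak. Right, treated (red) and control (gray) peaks per Mb in 5 groups of the 1 Mb windows by GC content. X stands highest on the left with 48.6%, and on the right the treated density goes from 3.18 to 22.1 per Mb.

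The longest stretch, 6.21 Mb at chrX:86919651-93129650, contains 7 protein-coding genes, among them PCDH11X, a protocadherin gene of 844 kb, and had 4 control peaks. Because the authors removed reads that aligned to more than a single place, the share of 75-base words that occur more than once on the chromosomes was measured at every 5 kb. It was 4.11% (4.06% to 4.16%) over chromosomes 1 to 22 and X and 21.7% in this stretch. Only exact copies of a word were counted. Reads lost to similar but not identical copies are therefore not measured, and a low share does not show that reads could be placed. The part of repeated sequence in the lack of peaks of this stretch was not tested.

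The next stretch differed from all others of the 10 longest in its genes. It spans 5.18 Mb at chr6:28367701-33547950, has a GC content of 44.8% and overlaps 186 protein-coding genes of the major histocompatibility complex and its surroundings, including those for the HLA antigen-presenting proteins. The control list had only 3 peaks in it and none over 5.001 Mb (chr6:28464151-33465050), an interval with 184 protein-coding start sites, while the 1 Mb before and after this interval held 10 and 28 treated peaks. Neither list had a peak on an alternative haplotype contig (0 of 29558 and 0 of 47470), and hg19 contains such contigs for this region. Repeated words within the chromosomes were 2.80% in this stretch, a count that does not include the haplotype contigs. An alignment of the same reads to those contigs was not tested, and the interval cannot be described as free of CTCF. Without it, the density of chromosome 6 was 8.04 peaks per Mb.

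The remaining 8 of the 10 longest stretches had a GC content between 34.8% and 38.3%, up to 6 protein-coding genes and repeated words between 1.78% and 3.76%. On X they were chrX:124266401-127950950 (3.68 Mb, no control peak, with the teneurin gene TENM1), chrX:93129851-96025450 (2.90 Mb, 9 control peaks, DIAPH2), chrX:96998251-99702900 (2.70 Mb, 11, PCDH19), chrX:144634401-147131050 (2.497 Mb, 2, with FMR1) and chrX:110924501-113318400 (2.39 Mb, 12, with the calcium channel gene TRPC5). The others were chr5:83385101-86052750 (2.67 Mb, 11, with EDIL3), chr3:93968751-96498800 (2.53 Mb, 7, no protein-coding gene) and chr11:23561901-25992750 (2.43 Mb, 3, with LUZP2). X thus held 6 of the 10 longest stretches, though chrX:86919651-93129650 and chrX:93129851-96025450 lie on both sides of the same peak.

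Only 21 of the 828 stretches contained at least 10 protein-coding start sites. Near-identical gene copies were frequent among these. In 12 of the 21 over 10% of the words were repeated, compared with 49 of all 828, and over the 21 together 27.8% (26.6% to 29.1%) of words were repeated. They include the beta-defensin and USP17L genes on chromosome 8 (43 start sites, 69.2% of words repeated), the SMN1 and SMN2 region on chromosome 5 (13, 81.1%) and the NCF1 region on chromosome 7 (16, 65.2%). The largest olfactory receptor cluster among them, on chromosome 11 (36 start sites, 34 of them of OR genes), had 3.89% of words repeated. Zinc finger clusters on chromosome 19 had 6.25% (25 start sites, 19 of them of zinc finger genes) and 8.21% (15 start sites, 14 of them of zinc finger genes), above the 4.11% of all mapped chromosomes. In stretches without a control peak 10.8% (10.3% to 11.4%) of words were repeated, and in those with a control peak 4.28% (4.17% to 4.39%).

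Of the 29558 peaks, 28 could not be placed on this map. The Y chromosome held 2 and 9 unplaced or unlocalized contigs held 26, of which 7 lay on the single contig that carries a ribosomal RNA gene unit.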

How the data were processed

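CTCF ChIP-seq and input libraries of control and CBL0137-treated HT1080 cells were the source. Per the authors, reads were aligned to hg19 by Bowtie2 2.2.3, reads with a further alignment and duplicates were dropped (SAMtools 1.5), and PePr called peaks on both replicates (stated p-value cutoff 0.05, windows of 100 bp). The methods describe single-end and the labels paired-end sequencing. The deposited lists give a fold enrichment (ratio of ChIP to input) with its p-value and FDR, as computed by the authors. The column order was taken to be that of the broadPeak format, as the files have no header. Lists of the authors' direct comparison were not used. Values of the fold were ranked only within a list.

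Peaks were placed on GRCh37 with GENCODE v44lift37, and classes were taken at the peak center in the order protein-coding promoter (within 1000 bp of a start site), other promoter, coding exon, untranslated region, noncoding exon, intron, intergenic. Each gene had 1 start site, the upstream end of its whole gene model, and starts of other transcripts were not used. Density used assembled bases of chromosomes 1 to 22 and X. No test was made, since lists were pooled. The loci named are the 10 peaks with the highest fold, the 5 widest, the 5 closest pairs (ties in chromosome order), the 5 strongest promoters, the 10 longest stretches and the 5 densest windows. Loci outside this rule (the BCR pair, long genes, HOX and protocadherin clusters and gene-rich stretches) were chosen after values were seen. The map, lists and families were chosen with earlier results of these data known. The routines for spacing, merging, the consensus, its direction and repeated words were tested on simulated data. The work was done in Python 3.11.15 with matplotlib 3.10.9, pandas 2.3.3, pysam 0.24.0, numpy 2.4.6 and scipy 1.17.1, and the genome was indexed by samtools 1.23.1. The whole sequence of a peak is not reported here.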

Additional observations from a re-analysis of the deposited data

How the results depend on the processing

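With only peaks of FDR at most 1e-05, 20853 peaks were left, the density was 7.35 per Mb, the median distance 55.6 kb, the intergenic share 29.8%, the share with the core 66.2% and the longest stretch 7.08 Mb. With a fold of at least 10, 28172 peaks were left, the density was 9.93 per Mb, the median distance 43.0 kb and the core share 61.3%. With neighbors under 1 kb merged, there were 28799 peaks, the density was 10.2 per Mb, the median distance 42.9 kb and the core share 59.6%. Under these 3 settings, the promoter share and the share of facing pairs stayed within the interval of the reported value. Promoters of 2.5 kb held 13.8% of peaks, protein-coding genes alone left 41.3% intergenic, and without a mismatch the core share was 20.3% and the facing share 21.9%. With any share of unassembled bases allowed, the longest stretch spanned 26.8 Mb, unassembled bases included. Over full chromosome lengths the density was 9.73 per Mb. No paired analysis was possible because the lists hold no value per replicate, and for the same reason no replicate could be left out. Depth limits on single peaks are unknown, and a region without a peak is not shown to be free of CTCF.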
